A study of Mus musculus with 2 samples.

Results

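The transcript levels of the enzymes of aromatic amino acid and tryptophan catabolism were examined in the liver of normal and type 2 diabetic mice. The rule named 9 genes, Tat, Tdo2, Hpd, Hgd, Fah, Kmo, Kynu, Haao and Qdpr, and 8 of them had a row in the table of 8551 genes. Qdpr, which encodes the reductase that regenerates the tetrahydrobiopterin cofactor of aromatic amino acid metabolism, had no row in this table and was not analysed here. Of the 8 genes, 4 (Tat, Hpd, Hgd and Fah) belong to tyrosine breakdown and 4 (Tdo2, Kmo, Kynu and Haao) to the kynurenine pathway of tryptophan. In the diabetic library, Kynu was 2.09-fold and Tdo2 1.63-fold higher, the other 6 genes differed by less than 1.5-fold, and Tat and Haao were slightly lower.

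The normal library came from the liver of wild type male mice of the C57BL/6 background, and the diabetic library from db/db male mice with the same background label. Mice of both groups were 9 weeks old and had free access to chow, and their livers were collected about 3 h into the light phase. The db/db mouse carries a defect of the leptin receptor gene in all tissues. The methods of the study name more than 1 source of mice without saying which group came from which. A part of the source in the differences therefore cannot be told apart. There was 1 library per group and the sources used here do not say whether it was made from pooled mice, so no difference below has a replicate check, no test of the conditions was possible, and intervals cover the error of counting tags only.

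The liver is the main site where surplus phenylalanine, tyrosine and tryptophan are broken down. Tyrosine is first transaminated and its ring is then opened, so that the carbon ends as fumarate and acetoacetate, which feed glucose and ketone body production. Tryptophan is opened to formylkynurenine and passes through kynurenine to hydroxyanthranilate, from which the carbon goes either to full oxidation or to the new synthesis of NAD. Tat and Tdo2 encode the first and controlling enzymes of these routes, and both are classical genes induced by glucocorticoids and by fasting.

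What was counted for each gene were short cDNA tags next to a site of the restriction enzyme DpnII, which cuts at GATC. The tags themselves were not analysed here, so the tag that the protocol would give from the last such site of each transcript was predicted from the GENCODE M21 transcripts of the mouse genome GRCm38 that are linked to a RefSeq mRNA. The predicted tags are shown because the levels of these genes rest on a stretch of this kind. Capitals mark the DpnII site.
Tat: GATCttttattttgtcaaggg
Hpd: GATCttcaccaagcccatgca
Hgd: GATCctcacagctctgatgct
Fah: GATCatgctaccactgcatca
Tdo2: GATCgtccatggatttttgga
Kmo: GATCtcagaattattatgttt
Kynu, transcript with the farthest end: GATCtgaacacagtccttata
Kynu, transcript with the middle end: GATCaaagggaataaatagca
Kynu, transcript with the nearest end: GATCtctgcttgtttgtgatt
Haao: GATCcacacccgctccgcatc

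None of these 21-base tags was found in a GENCODE transcript of another gene. The Tat tag lies in the 3′ UTR in exon 12 of 12 (chr8:109999735-109999755, plus strand), 69 bases from the transcript end counted from the start of the site. The Hpd tag is the exception to a UTR position, since it lies in coding sequence in exon 13 of 14 (chr5:123172219-123172239, minus strand). The tags of Hgd (chr16:37631876-37631896, plus strand, exon 14 of 14) and Fah (chr7:84585206-84585226, minus strand, exon 14 of 14) lie in the 3′ UTR of the last exon. The same holds for Tdo2 (chr3:81957436-81957456, minus strand, exon 12 of 12), Kmo (chr1:175660291-175660311, plus strand, exon 15 of 15) and Haao (chr17:83831188-83831208, minus strand, exon 10 of 10). The Haao transcript has only 2 DpnII sites, whereas the Tat transcript has 11. Kynu has 3 transcripts linked to RefSeq mRNAs, each with its own last site and therefore its own tag. These lie at chr2:43682537-43682557 for the transcript that ends farthest downstream, at chr2:43680176-43680196 for the one with the middle end and at chr2:43636178-43636198 for the one that ends first, all in the 3′ UTR on the plus strand. The deposited Kynu value does not say which of these tags it holds.

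The values are in TPM, which here means tags of a gene scaled to all clean tags of its library. They rise in steps of 0.0973 TPM in the normal and 0.0740 TPM in the diabetic library, which is 1 read, so that depths of 10278530 and 13508232 clean tags and the reads of each gene were computed. Ratios are diabetic over normal TPM. Over all 8551 genes the median log2 ratio was 0.25, and 4 scalings between the libraries that use the listed genes lower every log2 ratio by 0.26 to 0.31. A gene near 0.25 was therefore typical of the table, and results are also given after scaling by the trimmed mean of M values (TMM).

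The 4 members of tyrosine breakdown differed by less than 1.5-fold between the libraries. Tat, the tyrosine aminotransferase, was at 1763 TPM (95% Poisson interval, 1737 to 1789) in normal liver and at 1533 TPM (1512 to 1554) in diabetic liver, from 18118 and 20707 reads. Its log2 ratio was -0.20 (95% Clopper-Pearson interval, -0.23 to -0.17), and it lay at -0.46 after TMM scaling. Tat was thus lower under each scaling, but by less than 1.5-fold. It had the most tags of the 8 genes in both libraries, ranking 26 among all listed genes in the normal and 49 in the diabetic library.

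The next 3 members were slightly higher in the diabetic library on the deposited scale. Hpd, the hydroxyphenylpyruvate dioxygenase that makes homogentisate and is the target of the drug nitisinone, was at 398 TPM in normal and 508 TPM in diabetic liver. Its log2 ratio was 0.35 (0.30 to 0.41). Hgd, the homogentisate dioxygenase whose loss causes alkaptonuria, was at 357 TPM in normal and 413 TPM in diabetic liver, a log2 ratio of 0.21 (0.15 to 0.27). Fah, the fumarylacetoacetate hydrolase whose loss causes hereditary tyrosinemia, was at 651 TPM in normal and 834 TPM in diabetic liver, a log2 ratio of 0.36 (0.31 to 0.40). These ratios are close to the median of all genes. After TMM scaling they were 0.10 for Hpd, -0.05 for Hgd and 0.10 for Fah, so that the direction of Hgd depended on the scaling. The 4 tyrosine genes together held 3168 TPM in the normal and 3288 TPM in the diabetic library, which is 1.04-fold and, after TMM scaling, 0.869-fold.

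**Figure D1:**
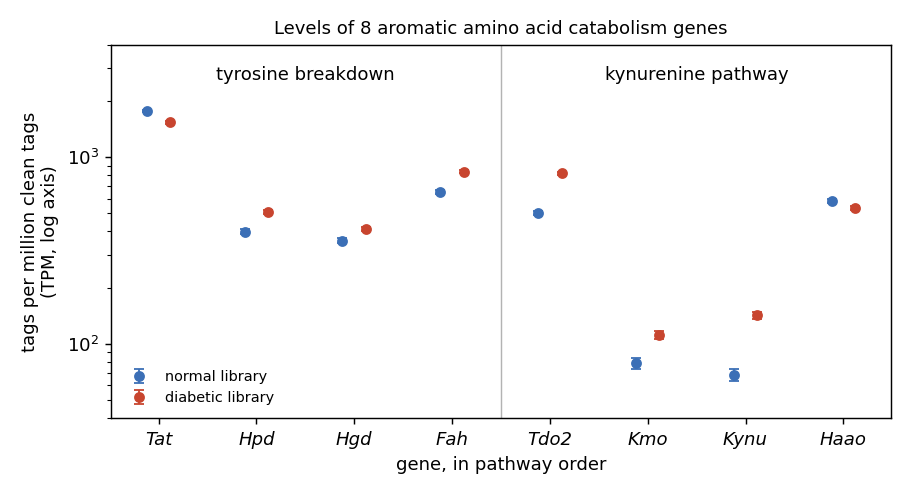
Levels of the 8 genes in the normal (blue) and diabetic (red) library, in TPM on a log axis. Bars are 95% Poisson intervals of the reads and cover counting error only. Tdo2 and Kynu show the widest separation, and Tat and Haao are the 2 genes with the lower value in the diabetic library.

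Of the 4 members of the kynurenine pathway, 2 were at least 1.5-fold higher in the diabetic library and the other two differed by less, Kmo upward and Haao downward. Tdo2, the tryptophan dioxygenase of the first step, was at 503 TPM (95% Poisson interval, 489 to 516) in normal liver and at 821 TPM (806 to 836) in diabetic liver, from 5166 and 11088 reads. This is 1.63-fold, a log2 ratio of 0.71 (0.66 to 0.76). After TMM scaling the log2 ratio of Tdo2 was 0.45, or 1.37-fold, and it no longer reached 1.5-fold.

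Kmo, the kynurenine monooxygenase of the outer mitochondrial membrane, was at 78.8 TPM (73.5 to 84.4) in normal liver and at 111 TPM (106 to 117) in diabetic liver. On the deposited scale, at 1.41-fold, a log2 ratio of 0.50 (0.38 to 0.63), it stood just under the threshold. Its interval reached up to 1.54-fold, so on this scale counting error alone does not settle on which side of 1.5-fold Kmo lies. After TMM scaling the log2 ratio of Kmo was 0.24, or 1.19-fold.

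Kynu, the kynureninase that splits hydroxykynurenine into hydroxyanthranilate and alanine and needs vitamin B6, was at 68.2 TPM (63.2 to 73.4) in normal liver and at 143 TPM (136 to 149) in diabetic liver, from 701 and 1925 reads. Its log2 ratio of 1.06 (0.94 to 1.19) was the highest of the 8 genes and higher than that of 83.2% of all listed genes. Kynu remained at 1.75-fold after TMM scaling, and it was above 1.5-fold under each of the 4 scalings, where its log2 ratio lay between 0.76 and 0.81.

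Haao, the hydroxyanthranilate dioxygenase that follows Kynu and makes the precursor of quinolinate, was at 585 TPM (570 to 599) in normal liver and at 532 TPM (520 to 544) in diabetic liver. Its log2 ratio was -0.14 (-0.19 to -0.09), and -0.39 after TMM scaling. Haao, the step after the member with the highest ratio, was thus lower in the diabetic library, by less than 1.5-fold. The 4 kynurenine genes together held 1234 TPM in the normal and 1607 TPM in the diabetic library, which is 1.30-fold and, after TMM scaling, 1.09-fold.

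At least 1.5-fold higher were 2 of the 8 members and at least 1.5-fold lower 0 of 8. Over all 8551 listed genes, 34.4% were at least 1.5-fold higher and 15.3% at least 1.5-fold lower. All 8 genes are abundant, with a mean of 95.2 TPM or more, and among the 1149 genes that averaged 50 TPM or more, a limit set with the values known, 40.2% were higher and 11.6% lower. The share of higher members was therefore not above that of the table. Their median log2 ratio of 0.36 lay close to the median of 0.37 over these 1149 genes. After TMM scaling Kynu was the only member at least 1.5-fold higher and no member was lower, whereas 23.9% of all genes were higher and 23.8% lower. When a false discovery rate (FDR) under 0.001 was required in addition, from an exact binomial test of the reads that compares the 2 libraries and not the conditions, Kynu and Tdo2 met both criteria, as did 22.5% of all genes in the higher and 8.07% in the lower direction.

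**Figure D2:**
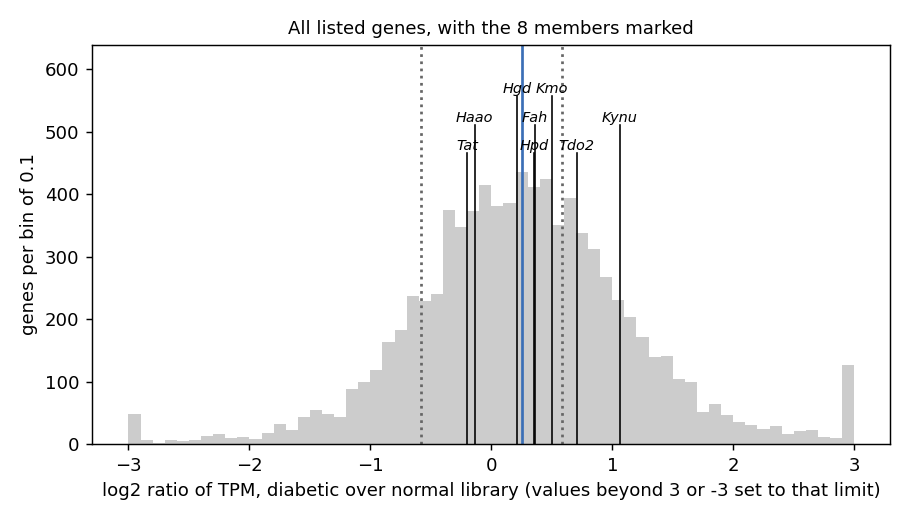
Number of genes by log2 ratio of TPM (diabetic over normal library, bins of 0.1) for all 8551 listed genes, with the 8 members marked by black lines. The blue line is the median of all genes at 0.25 and dotted lines mark 1.5-fold. Kynu and Tdo2 lie beyond the upper dotted line, and the other 6 members lie between the dotted lines.

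Because a scaling between the libraries moves all genes alike, it cancels when 2 genes are compared within each library. This was done for the 6 pairs of members that follow each other in the pathway, although other enzymes act between some of them. The largest of the 6 differences was between Kynu and Haao. The log2 ratio of Haao was below that of Kynu by 1.20 (difference -1.20, 95% interval of counting -1.33 to -1.07). For every Kynu tag there were 8.57 Haao tags in normal and 3.73 in diabetic liver.

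Kynu also exceeded Kmo, by 0.56 (0.39 to 0.74) on the log2 scale. The Kynu tags per Kmo tag went from 0.865 in the normal to 1.28 in the diabetic library. The order of the genes by tags therefore differed between the libraries. Kmo was above Kynu in the normal library, where their Poisson intervals just failed to overlap, and Kynu was above Kmo in the diabetic library. Haao was likewise above Tdo2 in the normal and below it in the diabetic library, while the order of Tat, Fah, Hpd and Hgd was the same in both. The difference between Kmo and Tdo2 was smaller, at -0.21 (-0.34 to -0.08).

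Among the 3 pairs of tyrosine members, the widest gap was between Tat and Hpd, where the log2 ratio of Hpd exceeded that of Tat by 0.56 (0.49 to 0.62). The differences between Hgd and Hpd, at -0.14 (-0.23 to -0.06), and between Fah and Hgd, at 0.15 (0.07 to 0.22), were small. Hence the proportions among Hpd, Hgd and Fah differed by 0.15 or less on the log2 scale, and that of Tat to Hpd by 0.56.

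**Figure D3:**
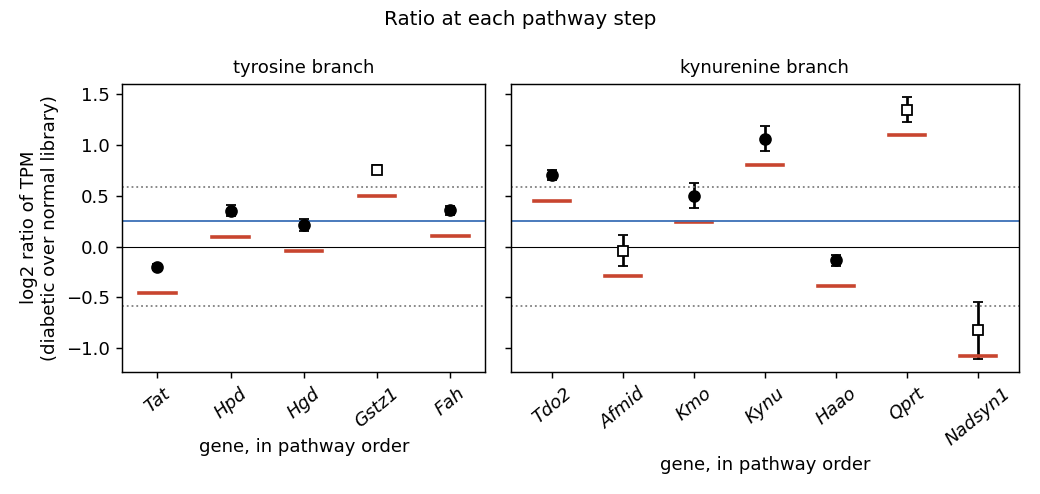
Log2 ratio of TPM (diabetic over normal library) at each step of the tyrosine branch (left) and the kynurenine branch (right), with members as filled circles and other enzymes of the route as open squares. Bars are 95% Clopper-Pearson intervals of counting, red dashes the value after TMM scaling, the blue line the median of all genes and dotted lines 1.5-fold. In the kynurenine branch Haao, at -0.14, lies between Kynu at 1.06 and Qprt at 1.35, and Afmid, at -0.04, lies between Tdo2 at 0.71 and Kmo at 0.50.

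The other enzymes of these routes were taken from lists, and a count of genes in a list is read beside the shares over all genes given above. Of 6 genes for the tetrahydrobiopterin cofactor, 5 had a row, 1 was at least 1.5-fold higher and 0 lower. The higher gene was Spr, the sepiapterin reductase of cofactor synthesis, at 1.52-fold. After TMM scaling Spr was below 1.5-fold.

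Of 8 other genes of tyrosine and phenylalanine metabolism, 5 had a row, of which 4 were at least 1.5-fold higher and 0 lower. Gstz1, the maleylacetoacetate isomerase between Hgd and Fah, was at 528 TPM in normal and 893 TPM in diabetic liver. Its log2 ratio of 0.76 (0.71 to 0.80) was above those of both its neighbours, 0.21 for Hgd and 0.36 for Fah. The aspartate aminotransferases Got1 and Got2, which also accept aromatic amino acids, were 1.82-fold and 2.40-fold higher. Maob, a monoamine oxidase, was 3.29-fold higher, from 348 and 1505 reads. After TMM scaling 3 of the 5 genes reached 1.5-fold and Gstz1, at 1.42-fold, did not.

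Of 8 other genes of the kynurenine pathway, 6 had a row, with 1 at least 1.5-fold higher and 1 lower. The higher gene was Qprt, which turns quinolinate into the first nucleotide of NAD synthesis. It was at 65.6 TPM in normal and 167 TPM in diabetic liver, with a log2 ratio of 1.35 (1.23 to 1.48), and lay above Kynu. The lower gene was Ccbl1, a kynurenine aminotransferase on the side branch to kynurenate, with a log2 ratio of -0.61 (-0.73 to -0.50). Afmid, the formamidase between Tdo2 and Kmo, had a log2 ratio of -0.04 (-0.20 to 0.12), and Ido2, a second tryptophan dioxygenase, one of 0.05 (-0.19 to 0.29). On the deposited values both intervals include equal levels at this depth. After TMM scaling the log2 ratios were -0.29 for Afmid and -0.21 for Ido2. Acmsd, which draws carbon away from NAD synthesis, and Ido1 had no row and were not analysed here. After TMM scaling Qprt was still at least 1.5-fold higher and Ccbl1 lower.

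Carbon of tryptophan that is fully oxidized joins lysine breakdown in the glutarate branch. Of 8 genes for this branch and the lysine steps leading to it, 7 had a row, all 7 were at least 1.5-fold higher, and their median log2 ratio was 1.15. They included Gcdh, the glutaryl-CoA dehydrogenase, at 1.62-fold, Dlst, a subunit of the oxoglutarate and oxoadipate dehydrogenase complexes, at 1.97-fold, and Aass, the first enzyme of lysine breakdown, at 2.47-fold. Dhtkd1, the oxoadipate dehydrogenase, was 3.49-fold higher from 62 and 284 reads. The thiolase Acat1 had 31 and 202 reads and was 4.95-fold higher. Aldh7a1, of lysine breakdown, and Hadh, shared with fatty acid oxidation, were 2.22-fold and 1.70-fold higher. After TMM scaling 5 of the 7 genes reached 1.5-fold, whereas Gcdh, at 1.36-fold, and Hadh, at 1.42-fold, did not.

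Among 10 genes of NAD synthesis and use, 7 had a row, 6 were at least 1.5-fold higher and 1 lower. The lower gene was Nadsyn1, the NAD synthetase that completes the route from tryptophan, with 253 and 188 reads and a log2 ratio of -0.82 (-1.10 to -0.54). Nampt, which salvages nicotinamide, was 1.74-fold higher, and Naprt1, which uses nicotinic acid, 1.51-fold. The adenylyltransferase Nmnat3 was 2.04-fold higher from 38 and 102 reads. The NAD kinases Nadk and Nadk2, the latter listed as 1110020G09Rik, were 2.12-fold and 1.68-fold higher. The highest ratio, 4.15-fold, belonged to Nnmt, which methylates nicotinamide and so removes it rather than making NAD. After TMM scaling 3 of the 7 genes (Nmnat3, Nadk and Nnmt) reached 1.5-fold upward and 1 (Nadsyn1) downward. Nampt, at 1.46-fold, Naprt1, at 1.27-fold, and Nadk2, at 1.41-fold, did not.

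**Figure D4:**
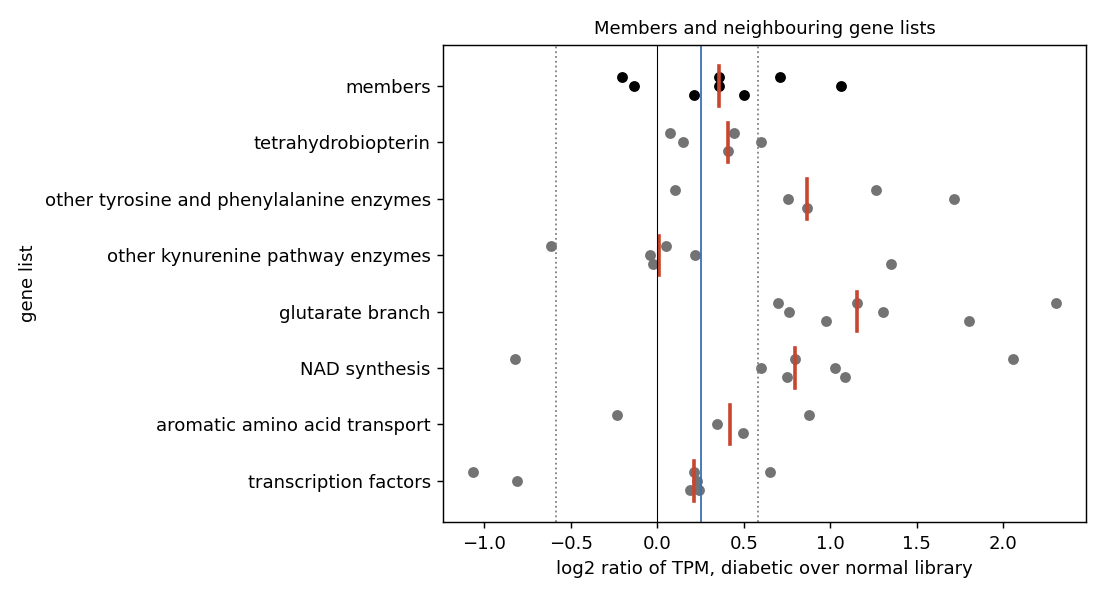
Log2 ratio of TPM (diabetic over normal library) of the 8 members (black) and of the genes of 7 other lists (grey), with 1 point per gene and red bars for list medians. The blue line is the median of all genes and dotted lines mark 1.5-fold. All 7 genes of the list for the glutarate branch and its lysine steps lie beyond the upper dotted line, as do 34.4% of all genes. After TMM scaling, which is not drawn, 5 of the 7 reach 1.5-fold. The median of the members is 0.36.

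Of 7 carriers of aromatic and other neutral amino acids, 4 had a row. Only Slc43a1 among these 4 was at least 1.5-fold higher, at 1.84-fold from 41 and 99 reads, and 0 were lower. Of 8 transcription factors known to act on Tat or Tdo2 or on liver genes in general, 7 had a row, 1 was higher and 2 lower. Nr3c1, the glucocorticoid receptor, had a log2 ratio of 0.24 (0.05 to 0.44), near the median of all genes, and -0.01 after TMM scaling. Cebpb was 1.57-fold higher. Hnf4a was 2.10-fold lower and Foxa3 1.76-fold lower. After TMM scaling Cebpb was below 1.5-fold, and Hnf4a and Foxa3 were the 2 lower factors.

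The libraries carried the hepatocyte markers of a liver sample, with Alb at 6801 TPM in the normal and 6912 TPM in the diabetic library. Of 6 hepatocyte markers with a row, 1 (Cps1, 2.43-fold) was at least 1.5-fold higher and 1 (Apob, 5.46-fold) lower. Their summed level was 17906 and 18763 TPM, or 1.05-fold, and 0.878-fold after TMM scaling. Without Cyp2e1, the hepatocyte marker with the highest mean level, the sum was 11325 and 10946 TPM, or 0.967-fold. Macrophages can also express Kmo and Kynu. Of 10 Kupffer cell and macrophage markers, 8 had a row, 4 (Emr1, Csf1r, C1qa and C1qc) were at least 1.5-fold lower and 1 (C1qb) higher, and their summed level was 327 TPM in the normal and 194 TPM in the diabetic library. C1qa alone went from 176 to 50.7 TPM, and without it the other 7 markers summed to 150.0 and 143 TPM, or 0.953-fold. The median log2 ratio of the 8 macrophage markers was -0.71. After TMM scaling 5 of these markers were at least 1.5-fold lower and 0 higher. Their part in the result was not tested. In whole liver, a change in the share of a cell type and a change in RNA per cell cannot be told apart. Of the endothelial, stellate cell, cholangiocyte, lymphocyte and erythroid markers, 7 of 7, 6 of 7, 3 of 5, 1 of 7 and 1 of 4 had a row, and their summed levels were 0.903-fold, 1.35-fold, 1.75-fold, 1.96-fold and 0.852-fold in the diabetic library. Without Clec4g, the marker with the highest mean level, the summed endothelial markers were 1.12-fold. Likewise, the stellate cell markers without Dcn were 1.23-fold and the cholangiocyte markers without Spp1 0.986-fold. Single markers also went opposite ways. Of the endothelial markers, 2 (Lyve1 and Kdr) were at least 1.5-fold higher and 1 (Clec4g) lower. Of the stellate cell markers, 1 (Col1a1) was higher and 1 (Reln) lower. After TMM scaling the sums, in the order of cell types above, were 0.757-fold, 1.13-fold, 1.46-fold, 1.64-fold and 0.714-fold.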

How the data were processed

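Digital gene expression tags of 1 normal and 1 diabetic liver library were analysed. Per the labels and the study's methods, poly(A) RNA was reverse transcribed, cut with DpnII and sequenced by Illumina technology, and the authors matched clean tags to RefSeq. The deposited values, called TPM by the authors, are RPM, that is tags scaled to the clean tags of the library, with 0.01 in place of 0. Genes with a mean under 1 TPM are absent, the lowest mean being 1.005. The submitters' processing notes name the mm9 build. The aligner and the counting of tags common to several genes are not given in the sources used here.

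The steps of the values gave the reads. Above the placeholder, 8513 of 8513 normal and 8536 of 8537 diabetic values were whole reads after rounding to 2 decimals. A count of 0 allows up to 3 reads. Intervals are 95% Poisson intervals for levels, Clopper-Pearson for ratios and normal intervals of the log odds ratio for differences of ratios. Since the tags carry no molecular identifiers, all intervals describe the error of counting alone. A gene was called at a fold of at least 1.5. The study also required an FDR under 0.001. As an alternative, this FDR was taken from two-sided exact binomial tests of the reads, adjusted by Benjamini-Hochberg over the 8551 genes, and both criteria were met by 2618 genes. Other alternatives were 4 scalings, pseudocounts, a minimum mean of 5 TPM and a fold of 2. TMM trimmed 30% of the ratios and 5% of the levels at each end. Predicted tags were the last GATC of a transcript with the 17 bases that follow.

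The members and 14 other gene lists were chosen with earlier results of these data known. Named genes are all members, the genes of the other lists beyond 1.5-fold (in part for markers) and Gstz1, Afmid, Acmsd, Qprt, Nadsyn1, Ido1 and Ido2; Nr3c1 and Alb were added after their values were seen. Some genes of these routes are not reported here and are in no list. Symbols were matched by Entrez ID through the RefSeq gene table of GRCm38.p6, used only for names, in which 8317 of 8551 IDs were found. The number of value columns not used was 0. Computations were tested on simulated reads. Software was scipy 1.17.1, numpy 2.4.6, matplotlib 3.10.9 and pandas 2.3.3 under Python 3.11.15.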

Additional observations from a re-analysis of the deposited data

How the results depend on the processing

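With 1 library per group, no library could be left out. No paired analysis was possible because each group holds 1 library. Scaling by the summed listed genes, by TMM, by median ratio or by upper quartile, or a fold threshold of 2, left 1 of the members called higher (Kynu) in place of 2, and 0 lower. The median log2 ratio of the members, 0.36 on the deposited values, was 0.097, 0.10, 0.050 and 0.088 under these 4 scalings in that order. All 32 values of single members under the scalings left their counting interval, and 0 of 16 did under pseudocounts of 0.1 and 1 TPM. Hgd was above 0 on the deposited values and below 0 under each scaling. Over the whole table, 2941 genes were higher and 1310 lower by at least 1.5-fold. The higher genes numbered 2028, 2045, 1874 and 1997 under the 4 scalings in the same order. They numbered 1773 with a mean of at least 5 TPM, 1589 at a fold of 2 and 1928 with the FDR. With a mean of at least 50 TPM, a minimum added after the values were seen, they numbered 462. The lower genes numbered 2044, 2036, 2189 and 2076 under the 4 scalings, and 658, 582, 690 and 133 under the other settings in the same order. Levels of the members rest on 701 reads or more per library, and on the deposited values Kmo was the only member whose counting interval included 1.5-fold. The spread between mice was not measured.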
